A study of Mus musculus with 2 samples.

Results

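Insulin-like growth factor (IGF)-binding protein genes and the gene of the IGF receptor were followed across the cell clusters of MMTV-PyMT mammary tumors. The 7 genes, Igfbp2, Igfbp3, Igfbp4, Igfbp5, Igfbp6, Igfbp7 and Igf1r, were taken by their symbols from the 32285 genes of the count matrices, and all 7 were among the 16037 genes that the authors kept. The tumors came from 2 Krt8-CreERT/Rosa26-mTmG/MMTV-PyMT mice, called mouse 1 and mouse 2, of 1 condition. Both carried a polyoma middle T oncogene driven by the MMTV promoter in mammary epithelium, a tamoxifen-inducible Cre driven by the promoter of the luminal keratin Krt8, and a reporter that switches to green fluorescent protein (GFP) where Cre has acted. Both received tamoxifen at 150 mg/kg on 6 days, 3 each in week 5 and week 6 of age, and tumors were taken at a volume of 1.5 cm3. GFP-positive cells that were negative for the dead-cell dye DAPI, the endothelial protein CD31 and the leukocyte protein CD45 were sorted, so that only descendants of labelled luminal cells were meant to be sampled, and there was no untreated or normal gland among the samples used here. The deposited annotation puts 9159 of 13713 cell barcodes in 18 clusters, numbered 0 to 17. Cluster 6 is the one that the study calls lumino-basal, and cluster 13 the one that it calls mature luminal.

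IGFs are small growth factors that act through IGF1R, a receptor tyrosine kinase that signals through the insulin receptor substrates to PI3K and Akt. The secreted binding proteins hold IGFs away from the receptor, carry them, or release them where proteases cut the binding protein, and several also bind extracellular matrix or cell surfaces. In the mammary gland the axis is known for its part in ductal growth, and IGFBP5 for its rise during involution after lactation. What was measured here is mRNA, not protein.

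Transcripts were counted by unique molecular identifiers (UMIs), short random tags that tell molecules apart from their copies. Levels are CPM, the UMIs of a gene in the cells of a cluster in 1 mouse per 1000000 UMIs of those cells. The libraries of mouse 1 and mouse 2 held 63140346 and 61529883 UMIs, and annotated cells had a median of 15014 and 9470 UMIs. The libraries shared 20 barcodes, of which 9 were annotated. Cluster 6 held 260 and 167 cells in mouse 1 and mouse 2 (3410589 and 1590251 UMIs), and cluster 13 held 73 and 192 cells (1219562 and 2417170 UMIs). Basal and luminal genes were both present in cluster 6. There a list of 10 basal and myoepithelial genes summed to 4615 CPM in mouse 1 and 4510 CPM in mouse 2. In cluster 13 it summed to 45.1 and 77.4 CPM. A list of 8 pan-luminal genes summed to 9091 and 7996 CPM in cluster 6, against 31001 and 29798 CPM in cluster 13. Most genes of the basal list are not keratins, so that its sum does not show a keratin lineage by itself. Cluster 6 also held transcripts of cell types that the sort was meant to remove. A list of 13 fibroblast genes summed to 1599 and 3383 CPM there, with no gene of the list at 0, and to between 0 and 325 CPM in the other 17 clusters. Pericyte genes (6 in the list) summed to 12.3 CPM in mouse 1 and 287 CPM in mouse 2 in cluster 6, against 7.41 to 74.9 CPM in the other clusters, and endothelial genes (7 in the list) to 24.6 and 332 CPM, against 0 to 92.7 CPM. For pericyte genes it was therefore mouse 2 alone that stood above the other clusters. For endothelial genes cluster 6 of mouse 2 stood above all other clusters. Cluster 6 of mouse 1, with UMIs of 6 of the 7 genes, stood above the other clusters of mouse 1 (at most 11.5 CPM). The 92.7 CPM was that of cluster 11 in mouse 2. Cells with UMIs of at least 3 genes of 1 of these or of 6 further lists made up 11.9% and 26.9% of cluster 6 cells, against 0% and 2.60% of cluster 13 cells. Those further lists summed in cluster 6 of mouse 1 and mouse 2 to 21.1 and 114 CPM for adipocytes, 25.5 and 76.7 CPM for neutrophils, 43.1 and 68.5 CPM for Schwann cells, 18.2 and 9.43 CPM for macrophages, 0.586 and 11.3 CPM for T and NK cells, and 0.880 and 0 CPM for B cells. Of these, the adipocyte and the T and NK cell sums of mouse 2 were above every other cluster (at most 33.9 and 3.34 CPM). In mouse 2 each of these sums came from 2 of the 4 genes of its list. Adipoq and Plin1 were at 0 in cluster 6 of both mice, as was Cd3d of the T and NK cell list. The rest lay within the range of the other clusters of both mice. Among the clusters of mouse 1 alone, however, the adipocyte sum of cluster 6 was the highest (6.20 CPM in the next).

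**Figure D1:**
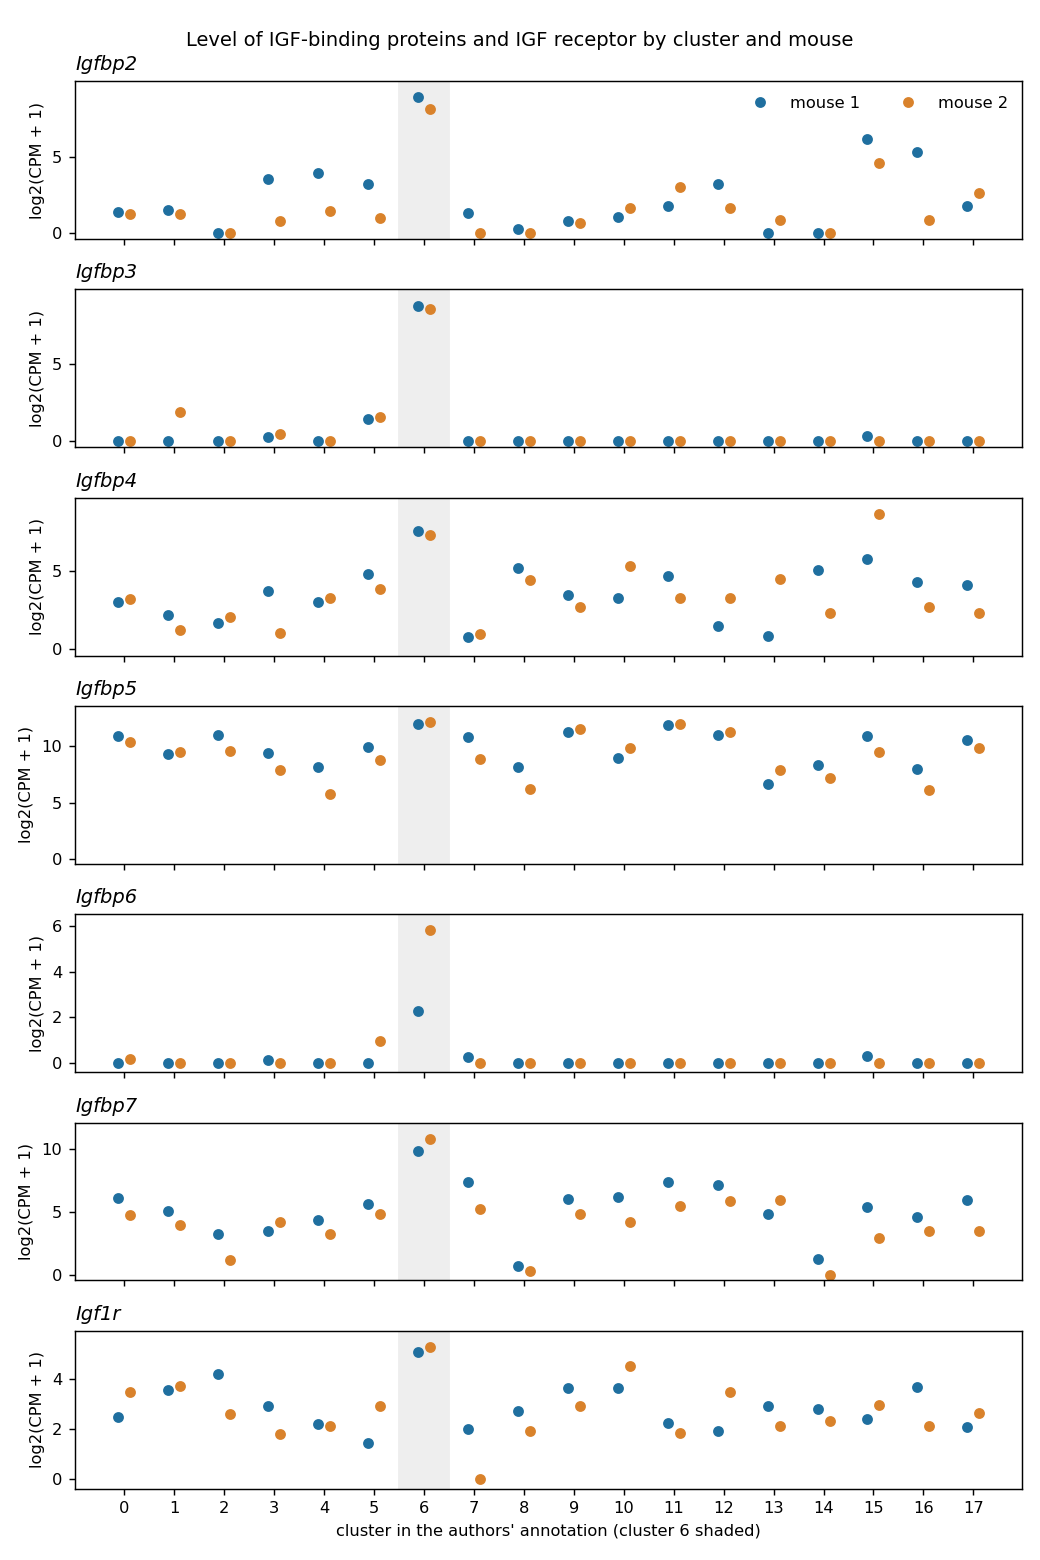
Level of the 7 genes in each of the 18 clusters, as log2(CPM + 1) of the summed UMIs on the vertical axis, with 1 point per mouse and cluster 6 shaded; the vertical scale differs between genes. Igfbp3 and Igfbp6 sit at or near 0 outside cluster 6, whereas Igfbp5 is above 55 CPM in every cluster.

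Igfbp3 encodes the main carrier of IGFs in serum. Its transcript was all but restricted to cluster 6, where it had 448 CPM in mouse 1 and 387 CPM in mouse 2 (1527 and 615 UMIs). Cluster 6 held 99.6% of the gene's UMIs in mouse 1 and 99.2% in mouse 2. In 13 of the 18 clusters no UMI was found in either mouse. The next cluster in the order, cluster 5, had 1.69 and 1.90 CPM, from 3 and 2 UMIs, and every later pair of neighbours overlapped between the mice.

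Igfbp3 lies on chromosome 11 from 7206086 to 7213923 on the minus strand (GENCODE annotation of build GRCm38), 3539 bases from Igfbp1, with no protein-coding gene between them. Igfbp5 lies on chromosome 1 from 72857932 to 72874884 on the minus strand, 5457 bases from Igfbp2, which runs from 72824503 to 72852474 on the plus strand. The other genes on the plus strand are Igfbp4 on chromosome 11 (99041244 to 99054392), Igfbp6 on chromosome 15 (102144362 to 102149511) and Igf1r on chromosome 7 (67952827 to 68233668). The promoters of Igfbp3, the gene with the narrowest pattern, of Igfbp5, the gene found most widely, and of Igfbp7 are shown for comparison. They are given as the 250 bases before the RefSeq start (GRCm38.p6, 5′ to 3′ on the strand of the gene). Capitals mark, on either strand, the TATA box (the letters TATAAA), its variants with the letters TATATA or with the letters TTTAAA, and the GC box (the letters GGGCGG).
Igfbp3, chr11:7213924-7214173, minus strand: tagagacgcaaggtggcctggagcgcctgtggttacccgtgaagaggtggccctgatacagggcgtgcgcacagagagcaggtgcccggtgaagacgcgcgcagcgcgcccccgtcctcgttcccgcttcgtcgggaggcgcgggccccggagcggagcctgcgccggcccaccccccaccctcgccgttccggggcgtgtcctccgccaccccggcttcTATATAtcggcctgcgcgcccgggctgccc
Igfbp5, chr1:72874866-72875115, minus strand: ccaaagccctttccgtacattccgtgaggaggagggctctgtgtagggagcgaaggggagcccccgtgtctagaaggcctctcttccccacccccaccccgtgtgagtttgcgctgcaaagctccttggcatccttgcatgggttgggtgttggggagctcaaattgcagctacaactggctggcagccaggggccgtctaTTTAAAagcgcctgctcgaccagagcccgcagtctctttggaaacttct
Igfbp7, chr5:77408046-77408295, minus strand: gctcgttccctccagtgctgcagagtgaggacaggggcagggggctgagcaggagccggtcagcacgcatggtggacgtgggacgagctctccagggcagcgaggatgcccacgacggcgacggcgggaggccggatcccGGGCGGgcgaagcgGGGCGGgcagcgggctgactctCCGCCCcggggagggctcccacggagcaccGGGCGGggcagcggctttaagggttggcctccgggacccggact
In Igfbp3 the letters TATATA began 30 bases before the start, and in Igfbp5 TTTAAA began 49 bases before it. Igfbp7 had no such letters and 4 GC boxes. Of the others, Igfbp4 had TATAAA at 28 bases before the start, Igfbp6 had these letters on the other strand at 148 bases, Igf1r had 2 GC boxes and no TATA-like letters, and the first of the 2 listed starts of Igfbp2 had 3 GC boxes. Over 32851 windows of the same length, TATAAA was found in 12.4%, the variant TATATA in 5.25%, the variant TTTAAA in 12.1% and the GC box in 32.7%. All 7 genes had an entry in the table, and these are matches of letters only.

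Igfbp2 encodes a binding protein that also carries an integrin-binding motif. It had 482 CPM in cluster 6 in mouse 1 and 280 CPM in mouse 2, and cluster 6 held 74.3% and 85.9% of its UMIs. Cluster 15 came next with 70.2 and 23.8 CPM, and its range did not overlap that of cluster 6. Cluster 15 had 191 cells in mouse 1 and only 17 in mouse 2, where the level rests on 7 UMIs. In 13 of the 18 clusters Igfbp2 was under 10 CPM in both mice.

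Igfbp4 encodes a binding protein known for inhibiting IGF action until the protease PAPP-A cuts it. Cluster 6 had 179 CPM in mouse 1 and 150 CPM in mouse 2 (mean 164 ± 20.4, SD, n = 2 mice). Cluster 15 had 51.2 CPM in mouse 1 and 387 CPM in mouse 2, so that it led by its mean while its range overlapped that of cluster 6. In mouse 2 the 387 CPM came from 17 cells, and 1 cell gave 40 of the 114 UMIs. Cluster 8 followed cluster 6 with 34.2 and 20.3 CPM, without overlap.

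Igfbp5 encodes a binding protein that also binds extracellular matrix. It was the member found most widely, with at least 55.6 CPM in every cluster of both mice. Igfbp4 also had UMIs in every cluster of both mice, but fell to 0.738 and 1.00 CPM in cluster 7. Cluster 6 had 3954 CPM in mouse 1 and 4502 CPM in mouse 2, and cluster 11 had 3782 and 4131 CPM, so that the ranges of these clusters overlapped. Cluster 9 came next with 2529 and 2935 CPM, then cluster 12 with 2112 and 2481 CPM and cluster 0 with 1954 and 1325 CPM, and neighbours in this stretch did not overlap. Below cluster 0 all neighbours overlapped. At the low end were clusters 14, 8, 13, 4 and 16, whose means ran between 161 and 237 CPM. The lowest level in mouse 1 was 103 CPM in cluster 13, and that in mouse 2 was 55.6 CPM in cluster 4. Cluster 6 held only 15.5% of the Igfbp5 UMIs in mouse 1 and 12.98% in mouse 2. Across the 18 clusters the order of the levels was alike in the mice (Spearman rho 0.858, and 0.831 over the 17 clusters without cluster 6), for a set of points that share 1 library within each mouse.

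Igfbp6 encodes a binding protein that prefers IGF2. It was found in few cells and unequally between the mice: cluster 6 had 13 UMIs in mouse 1 and 88 UMIs in mouse 2, or 3.81 and 55.3 CPM. Outside cluster 6 it had 3 UMIs in each mouse, and 12 clusters had none in either. In mouse 1, 12 of the 13 UMIs came from 1 cell.

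Igfbp7 encodes a related secreted protein that binds IGFs weakly and is found in matrix and vessel walls. Cluster 6 had 914 CPM in mouse 1 and 1771 CPM in mouse 2. Clusters 11, 7 and 12 followed, with means between 100.05 and 104 CPM, and cluster 11 had 162 and 45.1 CPM, without overlap with cluster 6. Clusters 8 and 14 were lowest, with 0.642 and 0.257 CPM in cluster 8. On chromosome 5 the gene (77349240 to 77408041, minus strand) overlaps Polr2b and Gm34648 on the other strand, and whether counting used the strand is not given in the sources used here.

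Igf1r, the receptor, was found at low levels in all clusters of mouse 1 and in all but cluster 7 of mouse 2, which had no UMI. Cluster 6 had 33.1 CPM in mouse 1 and 38.4 CPM in mouse 2 (113 and 61 UMIs). Cluster 10 came next with 11.54 and 21.8 CPM, and this was the only step in the order of 18 clusters where neighbours did not overlap. Unlike the order for Igfbp5, that for Igf1r was hardly shared by the mice, with a Spearman rho of 0.220 over 18 clusters. Without cluster 6 it was 0.0735 over 17 clusters.

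The levels in cluster 6 and cluster 13 were then compared, since the study sets these clusters against each other. Since the clusters were made from these expression values, a p-value here only sets the difference against the spread that the fit assumes. The fit had 1 residual degree of freedom and drew that spread largely from all genes together. A small p-value alone therefore does not show that both mice agree. Sums of UMIs per mouse and cluster entered edgeR's quasi-likelihood test, blocked by mouse, with Benjamini-Hochberg adjustment over all 9794 genes tested. The filter on low counts asks for at least 4.99 CPM in 2 of the 4 sums. Igfbp5 and Igfbp7 met it in both clusters, and both were higher in cluster 6 at an adjusted p under 0.05, as were 16.3% of all genes tested, with 12.1% lower (28.4% in either direction). Igfbp2, Igfbp3, Igfbp4 and Igf1r met it only with the help of their sums in cluster 6 (in cluster 13, Igfbp4 and Igf1r reached the minimum in 1 sum and the others in none), so that their entry into the test already depended on the difference, and their calls at the same threshold are no separate support for it. Igfbp6 did not meet it.

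**Figure D2:**
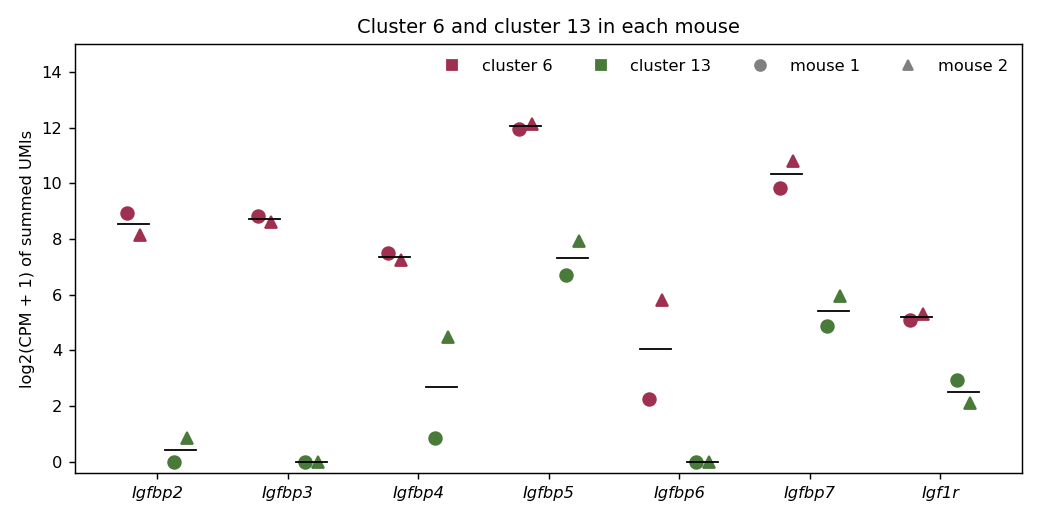
The 7 genes in cluster 6 (left of each pair) and cluster 13 (right), as log2(CPM + 1) of the summed UMIs, with 1 point per mouse and a bar at the mean of the 2 log values. For each gene both points of cluster 6 lie above both points of cluster 13.

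Igfbp3 had no UMI in cluster 13 of either mouse, and 2142 UMIs in cluster 6 of both mice together. Counting 3 UMIs for cluster 13 and pooling the UMIs of both mice, it was at least 519-fold higher in cluster 6. Within each mouse the limit for no UMI in cluster 13 was 2.46 CPM in mouse 1 and 1.24 CPM in mouse 2. Set against 448 and 387 CPM in cluster 6, these limits give lower bounds than the pooled one. Igfbp2 had 2088 UMIs in cluster 6 and 2 in cluster 13, both of them in mouse 2, a ratio of 759 with a counting interval of 210 to 6273. For both genes the size of the fold is set by almost empty sums in cluster 13. The pooled bound and the interval leave out the pairing by mouse and cover counting error of UMIs only.

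Igfbp5 had 3952 CPM (mouse 1) and 4302 CPM (mouse 2) in cluster 6, against 108 and 250.1 CPM in cluster 13, after TMM normalization, which scales the sums for their composition and is used for all values beside a log2 fold change. Its log2 fold change was 4.62 (SE 0.23, edgeR adjusted p = 1.4e-17). In cluster 13 of mouse 2, 1 cell gave 278 of the 582 UMIs. Igfbp7 had 913 and 1693 CPM in cluster 6, against 30.1 and 63.6 CPM in cluster 13, and a log2 fold change of 4.82 (SE 0.25, edgeR adjusted p = 5.7e-17). For both genes the difference between the clusters was larger than the spread between the mice.

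Igfbp4 had 178 and 143 CPM in cluster 6, against 0.86 and 22.3 CPM in cluster 13, and a log2 fold change of 3.73 (SE 0.43, edgeR adjusted p = 1.2e-08). The mice differed widely in cluster 13: mouse 1 had 1 UMI, and mouse 2 had 52 UMIs, 24 of them in 1 cell. Igf1r had 33.1 and 36.7 CPM in cluster 6, against 6.88 and 3.44 CPM in cluster 13, and a log2 fold change of 2.85 (SE 0.44, edgeR adjusted p = 3.9e-06). That of Igf1r was the smallest difference of the 6 members tested. Igfbp6 had 101 UMIs in cluster 6 and none in cluster 13. Counting 3 UMIs for cluster 13 over both mice, it was at least 24.5-fold higher in cluster 6, a bound that rests on the 88 UMIs of mouse 2. In mouse 1 its 3.81 CPM in cluster 6, mostly from 1 cell, stood against a limit of 2.46 CPM for no UMI in cluster 13. In fits that kept Igfbp6, its adjusted p was 1.1e-16 with edgeR and 0.486 with DESeq2.

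These calls rest on 2 mice. Without cluster 6 of mouse 2 no gene of the whole table passed the threshold with edgeR (3053 did at an unadjusted p under 0.05), and the adjusted p of the 6 members ran between 0.0646 and 0.149. Without cluster 6 of mouse 1, Igfbp4 (adjusted p = 0.124) and Igf1r (0.0510) did not pass. With DESeq2, which called 9.01% of its genes (5.7% higher and 3.31% lower), Igfbp4 had an adjusted p of 0.0578. Without cluster 13 of mouse 2 the log2 fold changes of Igfbp4 and Igfbp2 were 7.43 and 12.60.

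Without the cells that carried markers of other cell types, Igfbp5 and Igfbp7 still passed with edgeR (25.9% of all genes passed in that fit, 14.5% higher and 11.4% lower), as did the 4 members that needed cluster 6 to meet the filter. The log2 fold change of Igfbp4 was then 2.63 and that of Igfbp7 3.95, against 3.73 and 4.82 with all cells. The CPM of Igfbp4 in cluster 6 averaged 82.6 over the mice without those cells and 164 with them, that of Igfbp7 711 and 1343, and that of Igfbp6 0 and 29.6. For Igfbp5 the averages were 4428 CPM without those cells and 4228 with them.

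Shares of cells were compared at equal depth, with each cell reduced at random to 2000 UMIs, which left out 15 and 10 shallower cells of cluster 6 and 1 and 9 of cluster 13. Igfbp5 had a UMI in 84.9% of 245 cluster 6 cells in mouse 1 (exact Clopper-Pearson 95% interval 79.8 to 89.1%) and 80.3% of 157 cells in mouse 2 (73.2 to 86.2%). In cluster 13 it had one in 5.56% of 72 cells and 7.65% of 183 cells. Before this reduction the shares were 89.2% and 82.6% in cluster 6 and 17.8% and 16.7% in cluster 13, where cells had a median of 15278 and 11819 UMIs, against 12186 and 8146 UMIs in cluster 6. Free RNA in the droplets also gives UMIs, and its part in these shares was not tested. Igfbp5 was far above the cluster 13 shares in cluster 12 (93.6% and 86.9%), cluster 11 (86.7% and 83.2%) and cluster 9 (84.2% and 79.1%).

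Igfbp7 had a UMI in 49.4% and 59.9% of cluster 6 cells at this depth, against 1.39% and 13.1% of cluster 13 cells (unthinned 75.4% and 77.2%, against 31.5% and 40.1%). The remaining binding proteins marked a minority of cluster 6 cells. Igfbp2 was found in 25.3% and 13.4%, Igfbp3 in 20.8% and 21.0%, and Igfbp4 in 23.3% and 14.6% of them. None of the 72 cluster 13 cells of mouse 1 had a UMI of these 3 genes, which allows a share of up to 4.17% by the rule of 3 counts and 4.99% by the exact interval. In mouse 2 none of 183 had Igfbp2 or Igfbp3, which allows up to 1.64% by that rule and 2.00% by the exact interval, while 5 had Igfbp4. Igf1r was found in 6.12% and 8.28% of cluster 6 cells, against none and 1 cell of cluster 13. Intervals and limits cover counting error only.

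**Figure D3:**
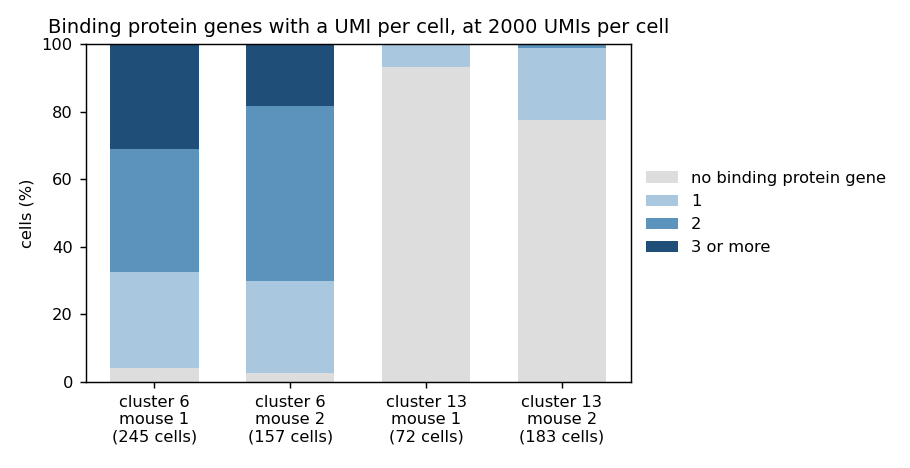
Share of cells in percent by the number of the 6 binding protein genes with a UMI, for cluster 6 and cluster 13 in each mouse, with every cell reduced to 2000 UMIs. Cells with 3 or more make up 31.0% and 18.5% of cluster 6 and are absent from cluster 13.

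Most cluster 6 cells held transcripts of more than 1 binding protein. The median was 2 of the 6 genes per cell in both mice, against 0 in cluster 13. Cells with none made up 4.08% of cluster 6 in mouse 1 and 2.55% in mouse 2, against 93.1% and 77.6% of cluster 13. Igfbp2 and Igfbp3 were found together in 24 of 245 cells in mouse 1 (9.80%, interval 6.38 to 14.2%), where the product of their shares is 5.27%, and in 12 of 157 cells in mouse 2 (7.64%, 4.01 to 12.97%), where it is 2.81%. Both genes were thus found together more often than the product of their shares in either mouse. For Igfbp5 and Igfbp7 the shared cells (41.2% and 43.9%) were close to the product (41.9% and 48.1%).

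Within cluster 6 the transcripts were unevenly spread over cells. The 10 richest cells held 41.6% of the Igfbp2 UMIs in mouse 1 and 76.2% in mouse 2, and 49.2% and 67.6% of the Igfbp3 UMIs. For Igfbp5 the 10 richest cells held 18.8% and 27.1%, and the median cell had 33.5 and 25 UMIs. The median cell had no UMI of Igfbp2, Igfbp3, Igfbp4, Igfbp6 or Igf1r in either mouse.

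Cluster 6 cells were next divided into 4 sets by other genes: cells with UMIs of at least 3 fibroblast genes (29 in mouse 1 and 31 in mouse 2), cells with both keratin types, Krt8 or Krt18 with Krt5 or Krt14 (79 and 69), cells with luminal keratins only (110 and 56), and remaining cells (42 and 11). The sets were cut from expression, so that the levels are a description. Which set a cell enters also depends on its depth, and the remaining cells had a median of 4189 and 4689 UMIs, against 12715 and 8603 UMIs in cells with both keratin types.

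**Figure D4:**
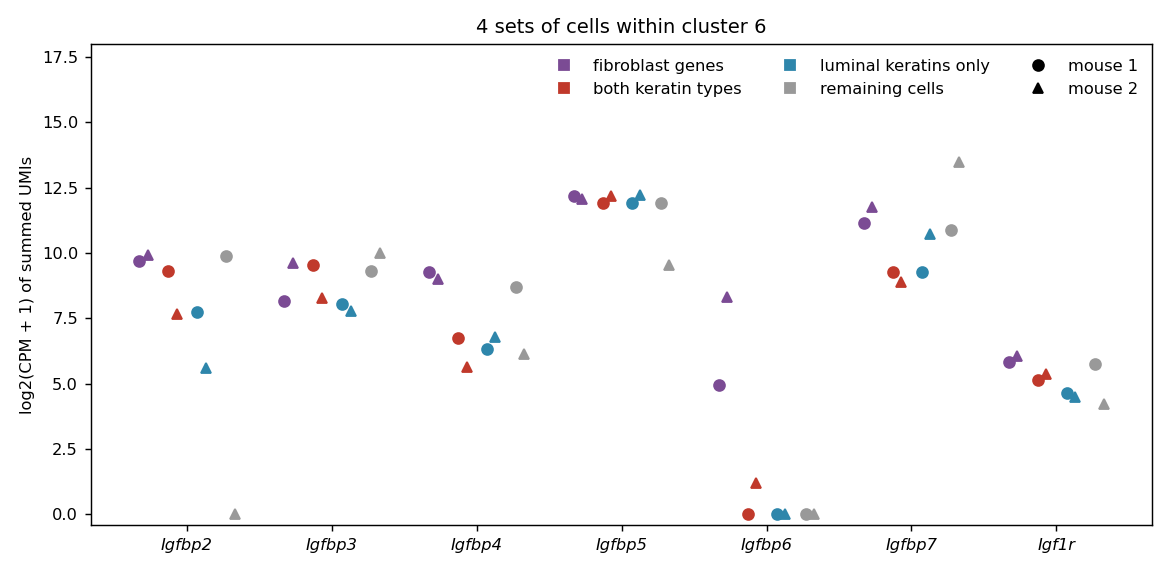
The 7 genes in the 4 sets of cluster 6 cells, as log2(CPM + 1) of the summed UMIs, with 1 point per mouse. Igfbp6 is found almost only in cells with fibroblast genes, and Igfbp5 lies between 3851 and 4761 CPM in all sets but the remaining cells.

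In 3 of the 4 sets Igfbp5 was at a similar level. It had 4601 and 4289 CPM in cells with fibroblast genes in mouse 1 and mouse 2, 3851 and 4688 CPM in cells with both keratin types, and 3859 and 4761 CPM in cells with luminal keratins only. These ranges overlap one another. The remaining cells had 3914 CPM in mouse 1 and 754 CPM in mouse 2. When cells were reduced to 2000 UMIs before the sets were made, cells with fibroblast genes had 1667 CPM in mouse 2, below the 5255 CPM of cells with both keratin types, and the remaining cells had 4377 and 4481 CPM. In cells with fibroblast genes of mouse 2, however, only 54.8% had an Igfbp5 UMI, against 98.6% of cells with both keratin types.

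Igfbp6 was found almost only in cells with fibroblast genes, which held 13 of its 13 UMIs in mouse 1 and 87 of 88 in mouse 2. Igfbp4 had 612 and 519 CPM there, 107 and 48.9 CPM in cells with both keratin types and 80.5 and 111 CPM in cells with luminal keratins only, without overlap between the first set and the others. Igfbp7 had 2276 and 3454 CPM in cells with fibroblast genes, 615 and 475 CPM in cells with both keratin types, and 623 and 1710 CPM in cells with luminal keratins only. These sets were mixed in mouse 2. Endothelial genes summed to 17.1 and 569 CPM in cells with luminal keratins only, and to 2.70 and 1.32 CPM in cells with both keratin types. Pericyte genes summed to 18.5 and 1519 CPM in cells with fibroblast genes. Their part in the Igfbp7 level of each set was not tested. In the remaining cells Igfbp7 had 1889 CPM in mouse 1 and 11510 CPM in mouse 2, where these 11 cells had 4088 CPM of endothelial genes. Cells with UMIs of at least 3 pericyte or endothelial genes, 3 in mouse 1 and 19 in mouse 2, held 5.87% and 51.3% of the Igfbp7 UMIs of cluster 6.

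Igfbp3 was found in all sets. The remaining cells had 637 and 1018 CPM, the highest mean of the 4 sets. Igfbp3 had 283 and 783 CPM in cells with fibroblast genes, 745 and 306 CPM in cells with both keratin types, and 263 and 222 CPM in cells with luminal keratins only. Cells with both keratin types were thus above cells with luminal keratins only in each mouse. Cells with both keratin types summed to 255 CPM of the fibroblast list in mouse 1 and 42.3 CPM in mouse 2. Cells with fibroblast genes summed to 9384 and 19368 CPM of it. The low sums follow in part from the cut, since cells with both keratin types had UMIs of fewer than 3 of these genes. With a limit of 2 genes, cells with fibroblast genes held 42.0% and 39.3% of the Igfbp3 UMIs of cluster 6. With 3 it was 7.99% and 34.6%. For Igfbp2 these shares were 42.2% and 61.3% with 2, and 22.0% and 59.8% with 3. Cells with both keratin types had 605 and 271 CPM of Igfbp3 and 623 and 201 CPM of Igfbp2 with 2. With a limit of 3, Igfbp2 had 839 and 978 CPM in cells with fibroblast genes. It had 643 and 205 CPM in cells with both keratin types, and 214 and 47.6 CPM in cells with luminal keratins only. In the remaining cells Igfbp2 had 949 CPM in mouse 1, above cells with fibroblast genes, and no UMI in mouse 2. Igf1r had 52.7 and 17.5 CPM in the remaining cells (12 UMIs and 1 UMI), a range that takes in those of both keratin sets. Over the other 3 sets Igf1r followed the order of Igfbp2, with 55.6 and 66.2 CPM, then 34.2 and 40.9 CPM, then 23.8 and 21.8 CPM. These 3 ranges did not overlap, although the levels rest on between 11 and 39 UMIs per set and mouse. With cells reduced to 2000 UMIs first, this order was not kept: Igf1r had 0 and 47.6 CPM in cells with fibroblast genes (0 and 2 UMIs) and 49.0 and 66.0 CPM in cells with both keratin types (5 and 7 UMIs), counts too low to give an order.

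The other genes of the pathway were taken from a list of 31, of which 21 passed the filter: 10 were higher in cluster 6, 1 was lower and 10 did not pass the test, where 16.3% of all genes tested were higher and 12.1% lower. The median log2 fold change was 0.75 over the 21 genes and 0.0086 over all genes tested. Igf1, Grb10, Sh2b2, Pappa, Stc1 and Htra1 met the filter only with the help of cluster 6 (in cluster 13, Grb10 and Htra1 reached the minimum in 1 sum and the others in none), so that these counts are a description. The ligand gene Igf1 had 38.4 and 69.7 CPM in cluster 6, against 0.86 and 0.86 CPM in cluster 13, a log2 fold change of 5.99. Pooled over the mice it had 3 UMIs in cluster 13 and 247 in cluster 6. The pooled ratio was 59.9, with an interval of 20.3 to 292 that covers counting error only. In mouse 2, 69.8% of these Igf1 UMIs lay in cells with fibroblast genes, against 19.1% in mouse 1. The other ligand, Igf2, had 10 UMIs in cluster 6 and none in cluster 13, and no UMI of Ins1, Ins2, Insrr, Igfbp1 or Igfbpl1 was found in either cluster.

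**Figure D5:**
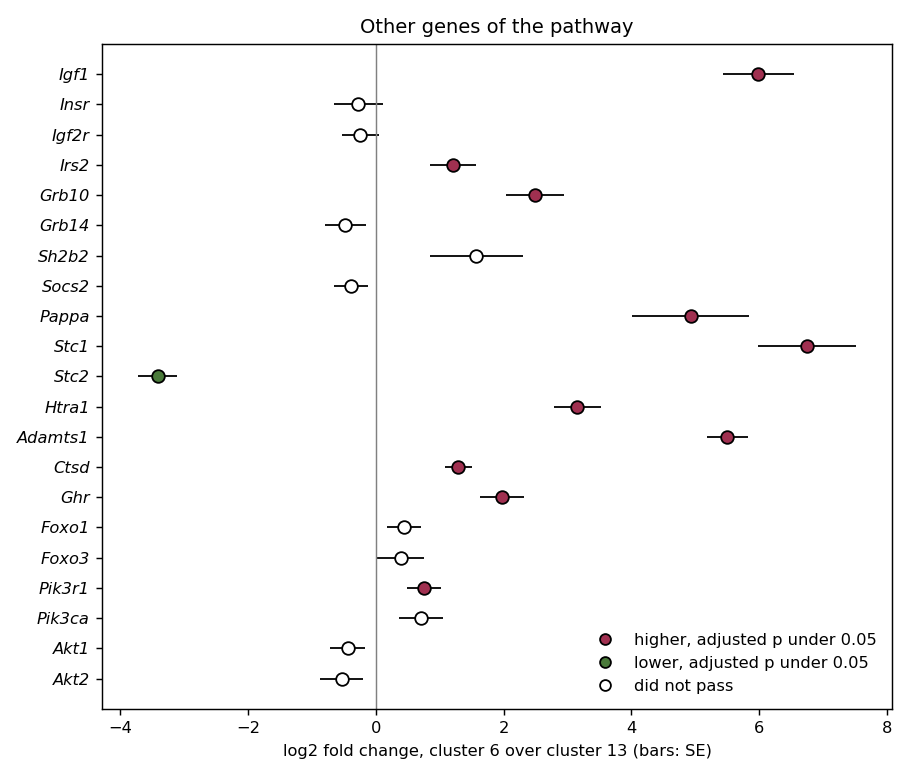
Log2 fold change of the 21 tested pathway genes, cluster 6 over cluster 13, with bars for the SE of the fit; filled points passed an adjusted p of 0.05. Stc1 (6.75) and Igf1 (5.99) lie farthest to the right, and Stc2 (-3.42) is the only called gene that was lower in cluster 6.

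Of the proteases and their inhibitors, all 6 tested genes passed, with 5 higher and 1 lower, against 28.4% of all genes tested. Of the 5, Pappa, Stc1 and Htra1 are among the genes that needed cluster 6 to meet the filter. Pappa, the protease of IGFBP4, had 9.08 and 10.8 CPM in cluster 6, against 0 and 0.43 CPM in cluster 13 (49 UMIs, against 1). Adamts1, a metalloprotease gene of the ADAMTS family, had 429 and 359 CPM in cluster 6, against 10.3 and 7.30 CPM in cluster 13. Its log2 fold change was 5.501. The serine protease gene Htra1 had a log2 fold change of 3.16 and the lysosomal protease gene Ctsd one of 1.29. The stanniocalcins, inhibitors of PAPP-A, went in opposite directions: Stc2 was lower, with 18.8 and 13.8 CPM in cluster 6, against 145 and 220.0 CPM in cluster 13 (log2 fold change -3.42), while Stc1 was higher (log2 fold change 6.75). All 26 Stc1 UMIs of cluster 6 in mouse 1 and 96.5% of 86 in mouse 2 lay in the 3 and 19 cells with pericyte or endothelial genes.

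Of the adaptors and the PI3K, Akt and Foxo genes, 3 of 11 tested passed, a share near the 28.4% of all genes. The adaptor Irs2 (log2 fold change 1.21), the adaptor Grb10 (2.50) and the PI3K subunit Pik3r1 (0.75) were higher, as was Ghr, the growth hormone receptor (1.98). The receptors Insr (-0.27) and Igf2r (-0.24) did not pass, nor did Akt1 (-0.44), Akt2 (-0.54), Foxo1 (0.45), Foxo3 (0.39), Pik3ca (0.70), Grb14 (-0.48), Socs2 (-0.38) or Sh2b2 (1.58). Irs2, Grb10, Pappa and Pik3r1 did not pass with DESeq2, where their adjusted p ran between 0.0902 and 0.488. Without cells of other types Pik3r1 (0.44) did not pass with edgeR (adjusted p = 0.286).

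Genes with the most similar pattern over the 18 clusters were sought among 4740 genes, by the Pearson r of log2(CPM + 10) in each mouse apart, ranked by the lower of the 2 values. These are descriptions over clusters that share a library. Igfbp3 was most like Lum, Col3a1 and Col1a2, fibroblast matrix genes, with a lower r of 0.997, 0.997 and 0.996, which fell to -0.08, -0.10 and -0.08 without cluster 6 and so rests on that cluster. Igfbp6 was most like Col3a1, Vcam1 and Igfbp3, with -0.03, -0.15 and 0.03 without cluster 6. Igfbp5 was most like Smoc1 (0.848), Cbr2 (0.778) and Cx3cl1 (0.777), with values without cluster 6 of 0.832, 0.751 and 0.762. Igfbp2 was most like Cnn1, a myoepithelial gene, Fst and Col14a1 (0.942, 0.940 and 0.936, and at least 0.749 without cluster 6). With Spearman's rho the values were only 0.503, 0.526 and 0.204. Since Igfbp2 was under 10 CPM in both mice in 13 of the 18 clusters, its r rests on few clusters. Igfbp4 was most like Mmp2, Pdgfrl and Fstl1 (0.809, 0.806 and 0.795), which without cluster 6 had 0.599, 0.563 and 0.564. Igfbp7 was most like Ackr3, Ptx3 and Npy (0.819, 0.754 and 0.752), with 0.507, 0.565 and 0.420 without cluster 6. Igf1r was most like Col18a1, Lama3 and Ctla2a (0.768, 0.725 and 0.722), and its likeness fell to 0.459, 0.256 and 0.249 without cluster 6. The part of cells of other types in these patterns was not tested.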

How the data were processed

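The data were single-cell 3′ RNA libraries of 1 tumor sample from each of 2 mice. The matrices deposited by the authors give raw UMI counts for barcodes that were called as cells by Cell Ranger (6.0.1, build mm10), and their deposited annotation, made with Seurat (4.0.3 in the submitters' processing notes), gives each cell's cluster, its UMI count and its mitochondrial fraction. The authors removed doublets, cells of low quality and immune clusters before deposit, and the cells without annotation (2346 and 2208 barcodes) were left out of all comparisons. The members and gene lists were chosen with earlier results of these data known.

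UMI counts were summed per mouse and cluster, since cells of 1 mouse are not replicates. CPM use all 32285 genes. Cluster 6 was tested against cluster 13 with edgeR 4.0.16 (limma 3.58.1, R 4.3.3): filterByExpr, TMM, glmQLFit and glmQLFTest with the mouse as a block, Benjamini-Hochberg adjustment over all 9794 genes and a threshold of 0.05. The animal gives the pairing, and the difference between the mice in cluster 6 correlated with that in cluster 13 across genes with r = 0.139. The fit had 1 residual degree of freedom and a biological coefficient of variation of 0.193. The SE was derived from the fold change and the F statistic. DESeq2 1.42.0 was an alternative. Tested on simulated data for this comparison (9862 genes), the test called 37 of 100 genes changed 2-fold, 100 of 100 changed 4-fold and 4 unchanged genes. The simulation gave every gene the same coefficient of variation and no difference between the mice. It changed only genes above a minimum mean count. These rates therefore need not hold for the real sums, nor for members with almost empty sums. Thinning used random seed 1. A cell of another type had UMIs of at least 3 genes of 1 of 9 lists (adipocytes, neutrophils, fibroblasts, endothelium, pericytes, macrophages, B cells, T and NK cells, Schwann cells).

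Named were all 7 members, pathway genes with at least 10 CPM in 1 cluster in both mice or past the threshold, and the 3 most similar genes of each member. The candidates for similarity had at least 50 CPM in a cluster. Genes outside this rule (pathway genes at 0 or with few UMIs, and keratins as landmarks) were named after their values were seen. Gene positions are from GENCODE vM21 and promoters from RefSeq. The alternatives were other scaling, no block, no filter, thinning, leaving out cells of other types, leaving out each sum, and a minimum fold of 1.5. Scores and Mahalanobis distances in the annotation were not used.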

Additional observations from a re-analysis of the deposited data

Results flagged for a closer look

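Transcripts of the members were also found in barcodes that the annotation leaves out, which no comparison uses, at levels above the limit that a count of 0 allows (0.665 CPM in mouse 1 and 0.658 CPM in mouse 2). Igfbp5 had 840 CPM there in mouse 1 and 460 CPM in mouse 2, against 1480 and 968 CPM in annotated cells. Igfbp7 had 43.0 and 14.5 CPM, against 104 and 67.9 CPM in annotated cells. Igfbp2 had 7.76 and 1.97 CPM, Igfbp3 5.54 and 1.32 CPM, Igfbp4 9.09 and 11.4 CPM, and Igf1r 4.88 and 12.9 CPM. Of these, only Igf1r in mouse 2 was above its level in annotated cells (8.04 CPM). Igfbp6 had no UMI there in mouse 1 and 10.3 CPM in mouse 2 (47 UMIs), against 1.60 CPM in the annotated cells of mouse 2. Which cells these barcodes hold was not tested.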

How the results depend on the processing

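Igfbp2, Igfbp3, Igfbp4 and Igf1r needed cluster 6 to meet the filter, so that their calls below are no separate support. All 6 tested members kept their direction under every alternative run. They passed the threshold with no replicate block (log2 fold changes from 2.85 for Igf1r to 12.77 for Igfbp3, and 1996 genes called in all), with RLE scaling, no filter, thinned cells, cells of other types left out and a minimum fold of 1.5. Without the block, Irs2 (1.19) and Pik3r1 (0.76) lost their calls, and no other tested pathway gene did. The number of genes called was 2782, against 981 with DESeq2, 1080 with cells thinned to 2000 UMIs (4705 genes tested) and 1838 against a fold of 1.5. With 1 of the 4 sums left out (no block, and the lone sample assumed to vary like the others) it lay between 0 and 1387. Igfbp4 lost its call with DESeq2 (4.94). Leaving out sums, the log2 fold change lay between 8.66 and 12.60 for Igfbp2, 12.32 and 13.01 for Igfbp3, 2.82 and 7.43 for Igfbp4, 4.01 and 5.23 for Igfbp5, 4.24 and 5.41 for Igfbp7, and 2.31 and 3.29 for Igf1r. Igf2r, never called, was at 0.26 with thinned cells and between -0.67 and 0.081 leaving out sums, and Insr between -0.70 and 0.011. The cause of these changes was not tested. With 2 mice and 1 condition, 2-fold changes were mostly missed in the simulation, and shares of cells depend on the depth chosen: without thinning, 11 of 14 shares moved by more than the spread between the mice. Of 21 similarity values, 18 moved by more than that spread with Spearman's rho, 17 with a pseudocount of 1 and 18 without cluster 6. Of 14 levels in clusters 6 and 13, 4 moved without cells of other types, 2 with thinned cells and 1 as a mean over cells. Of 7 levels in cells with fibroblast genes, 5 moved when cells were thinned before the sets were made and 1 with a limit of 2 fibroblast genes.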
